A study of Mus musculus with 2 samples.

Results

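The Tip60 complex, also called NuA4 in yeast, is a large chromatin assembly built around the lysine acetyltransferase Kat5 (Tip60). The genes described here are 10 of its subunits, Kat5, Trrap, Ep400, Ruvbl1, Ruvbl2, Dmap1, Epc1, Epc2, Ing3 and Morf4l1, taken as a fixed list. All 10 had a row among the 14366 genes of both deposited tables, and all 10 passed the minimum of 5 CPM (molecules of a gene scaled to a common library total) used for comparisons across genes. Kat5 acetylates histones H4 and H2A and non-histone proteins such as ATM, while Ep400 is an ATPase that places the histone variant H2A.Z into nucleosomes. Trrap is a scaffold that binds transcription factors such as MYC and E2F1 and so brings the complex to promoters. In blood stem cells the complex is known mainly as a cofactor of MYC and as a requirement for stem cell maintenance.

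The series asked how an iron chelator changes the transcripts of mouse hematopoietic stem cells (HSC). Cells were sorted as lineage-negative, Sca-1+, c-Kit+, CD150+ and CD48- from bone marrow pooled over 8 wild-type C57/B6 mice aged 6 to 8 weeks. Both groups were then cultured for 48 h in a medium with cytokines, among them SCF at 100 ng/ml, the vehicle group with sterile water and the other with 10 µM deferoxamine (DFO), which binds iron. There is 1 droplet-based single-cell library per group, so differences between groups could not be set against a spread between replicates, and no test was run. The series text describes a single pool but does not assign it to each library. Brackets hold exact 95% intervals, Poisson for molecules and Clopper-Pearson for shares. They cover counting error only and leave out variation between cells, cultures and library preparations.

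The vehicle library held 8708 cells and 260938938 molecules, counted by unique molecular identifiers (UMIs), and the DFO library held 9852 cells and 284326017 molecules. The median cell had 27805.5 UMIs for vehicle and 27114 for DFO, and 24 cell barcodes (0.276% of vehicle and 0.244% of DFO barcodes) occurred in both libraries. Of 18 HSC markers 16 had a mean of 5 CPM or more, with summed levels of 2073 CPM for vehicle and 2195 CPM for DFO. Of 15 megakaryocyte markers 12 did, and their sum was 2140 CPM for vehicle and 1064.5 CPM for DFO. Of the 6 eosinophil markers none had a row, and the other marker lists (erythroid, neutrophil-monocyte, mast cell or basophil, lymphoid, macrophage or dendritic cell, stromal or endothelial) summed to between 7.10 and 569 CPM. Whether these sums differ through the makeup of the cultures or through the level per cell cannot be told apart from them, and the same holds for any level over all cells.

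Kat5 lies at chr19:5603014-5610237 on the minus strand of GRCm38 (mm10), Ruvbl1 at chr6:88465409-88497572 on the plus strand and Ruvbl2 at chr7:45421760-45438096 on the minus strand. Trrap (chr5:144767732-144859778, plus) and Ep400 (chr5:110664373-110770717, minus) share a chromosome but not a neighbourhood. Dmap1 lies at chr4:117674681-117682273 (minus), Epc2 at chr2:49451486-49551948 (plus), Ing3 at chr6:21949571-21976038 (plus) and Morf4l1 at chr9:90091665-90114774 (minus). The 3′ part of Kat5 overlaps the 3′ part of Rnaseh2c, which is annotated on the opposite strand at chr19:5601873-5607019. Rnaseh2c, a subunit of ribonuclease H2, lay at 253.7 CPM in the vehicle library and 224.2 CPM in the DFO library, far above Kat5. No source used here says whether counting used strand, so it is not known whether reads of this overlap were told apart between the genes. Ruvbl2 likewise overlaps Gys1 (6.25 and 6.05 CPM) on the opposite strand, and Morf4l1 has a processed pseudogene, Morf4l1-ps1, with no row of its own here.

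Promoter windows of 250 bases before the start site were taken from RefSeq (GRCm38.p6) for 9 of the 10 genes. They are shown for Kat5, the catalytic subunit, and for Ruvbl1 and Ruvbl2, the pair whose levels moved together most closely in the results that follow. The windows are chr19:5610095-5610344 (minus) for Kat5, chr6:88465159-88465408 (plus) for Ruvbl1 and chr7:45434465-45434714 (minus) for Ruvbl2, written 5′ to 3′. Capitals mark the E-box CACGTG, which MYC and its partner MAX can bind, and the CCAAT box, read as CCAAT or, on the other strand, ATTGG.
Kat5: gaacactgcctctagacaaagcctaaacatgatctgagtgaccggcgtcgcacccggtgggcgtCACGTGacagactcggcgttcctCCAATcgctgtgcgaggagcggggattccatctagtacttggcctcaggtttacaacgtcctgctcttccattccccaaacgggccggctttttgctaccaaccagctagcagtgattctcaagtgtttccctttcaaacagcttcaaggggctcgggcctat
Ruvbl1: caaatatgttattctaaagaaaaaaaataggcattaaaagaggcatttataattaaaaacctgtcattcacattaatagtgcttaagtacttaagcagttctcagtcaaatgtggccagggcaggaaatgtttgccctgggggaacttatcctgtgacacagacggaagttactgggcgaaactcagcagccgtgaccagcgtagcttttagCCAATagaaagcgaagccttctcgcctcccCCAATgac
Ruvbl2: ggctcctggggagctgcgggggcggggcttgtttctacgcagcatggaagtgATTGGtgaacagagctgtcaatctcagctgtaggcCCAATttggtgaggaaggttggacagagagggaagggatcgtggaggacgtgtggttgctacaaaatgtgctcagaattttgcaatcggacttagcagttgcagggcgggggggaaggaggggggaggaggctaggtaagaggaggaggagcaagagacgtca
The Kat5 window holds 1 E-box, whose first base lies 186 bases before the start site (-186), and 1 CCAAT box at -163. No E-box was found in the windows of the other 8 genes or in the second window that RefSeq gives for Kat5. An E-box of these letters occurs in the windows of 10.3% of the 7099 matched genes with 5 CPM or more. The Ruvbl1 window has CCAAT boxes at -38 and -8 and the Ruvbl2 window at -198 and -163. CCAAT boxes were found for 4 of the 9 genes (Kat5, Ruvbl1, Ruvbl2 and Ing3), against 40.9% of the matched genes. These are matches of letters, not measured binding. The RefSeq starts of Kat5 and Ruvbl2 lie inside the GENCODE gene spans given for them.

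The 10 transcripts covered a wide range of levels. Each captured molecule is counted once at its 3′ end whatever its length, so the CPM given here is not divided by length, and capture may differ between genes. Morf4l1, a chromodomain protein that reads methylated histone H3, was the most abundant, at 399.3 CPM (396.9 to 401.7) for vehicle and 410.0 CPM (407.6 to 412.3) for DFO. It alone made up 43.7% of the members' molecules in the vehicle library and 42.8% in the DFO library. Next in level were the AAA+ ATPases Ruvbl1, at 209.8 CPM (208.0 to 211.5) and 227.3 CPM (225.5 to 229.0), and Ruvbl2, at 119.4 CPM (118.05 to 120.7) and 132.8 CPM (131.4 to 134.1), for vehicle and DFO respectively. Both ATPases also serve the INO80 and SRCAP complexes and a chaperone for other assemblies, so their transcripts are not a measure of this complex alone. Ep400 followed at 60.3 CPM (59.3 to 61.2) for vehicle and 58.6 CPM (57.7 to 59.5) for DFO.

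The other 6 subunits lay close together, between 17.8 and 26.4 CPM. Trrap was at 23.8 CPM (23.2 to 24.4) for vehicle and 26.4 CPM (25.8 to 27.0) for DFO. Dmap1, first described as a partner of the DNA methyltransferase DNMT1, was at 23.1 CPM (22.5 to 23.7) and 21.7 CPM (21.2 to 22.3). Epc1 and Epc2, alternative scaffolds that hold the acetyltransferase module together, were at 21.6 and 22.3 CPM (Epc1) and at 17.8 CPM in both libraries (Epc2). Ing3, whose PHD finger reads trimethylated H3 lysine 4, was at 20.5 CPM (19.97 to 21.1) and 21.8 CPM (21.2 to 22.3). Kat5, the catalytic subunit, was at 19.1 CPM (18.5 to 19.6) in the vehicle library and 19.1 CPM (18.6 to 19.6) in the DFO library, below 8 of the other 9 members. In the vehicle library the intervals of the neighbours Trrap and Dmap1 overlapped, and those of Epc1 and Ing3 just touched. In the DFO library Epc1, Ing3 and Dmap1 could not be ordered.

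**Figure D1:**
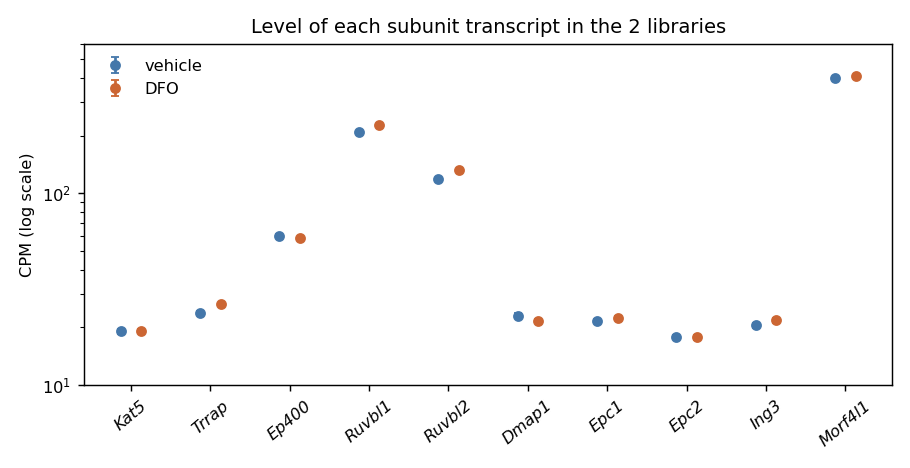
Level of each subunit in CPM (log axis) in the vehicle (blue) and DFO (orange) libraries, with exact 95% Poisson intervals, most of them smaller than the points. Kat5 sits at 19.1 CPM in both libraries, and Morf4l1, Ruvbl1, Ruvbl2 and Ep400 stand above the other 6.

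At these depths Kat5 averaged 0.572 molecules per vehicle cell and 0.552 per DFO cell. For vehicle, 42.3% of cells (41.2% to 43.3%) had at least 1 Kat5 molecule, and for DFO 40.4% (39.4% to 41.4%). After each cell was thinned to 10000 UMIs, which left out 351 vehicle and 433 DFO cells, the shares were 18.36% (17.5% to 19.2%) and 16.8% (16.1% to 17.6%). The Kat5 level over all molecules was the same to 3 digits, so these shares are not used to order the groups. In the thinned cells the Kat5 level itself was lower for DFO, by -0.093 on the log2 scale. Morf4l1 was seen in 97.8% of thinned vehicle and 98.3% of thinned DFO cells, and Ruvbl1 in 85.7% and 88.9%. A median of 4 of the 10 members was seen per thinned cell in each library. No cell type in these cultures is known to lack the complex, so a part from free RNA was not bounded.

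The comparison of groups asked whether DFO changed the level of any subunit. Differences are log2((DFO CPM + 1)/(vehicle CPM + 1)), with the interval of the ratio in brackets. None of the 10 members reached an absolute difference of 0.25, a size that 3.97% of the 8886 genes averaging at least 5 CPM did reach. Their median difference was 0.041, beside 0.019 over all these genes. All subunits summed lay at 915 CPM (911 to 918) for vehicle and 958 CPM (954 to 961) for DFO, a difference of 0.066 (0.058 to 0.074). The Kat5 difference was 0.0035 (-0.052 to 0.059), and only 2.89% of the tested genes had a smaller one in absolute size.

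The highest differences among the members were those of Ruvbl2 at 0.15 (0.13 to 0.18), Trrap at 0.14 (0.097 to 0.19) and Ruvbl1 at 0.12 (0.099 to 0.13). Those 3 members passed an absolute difference of 0.1, which 33.1% of tested genes also passed. Ing3 differed by 0.081 (0.032 to 0.14) and Morf4l1 by 0.038 (0.026 to 0.050), both with intervals above 0. Dmap1 at -0.085 (-0.14 to -0.037) and Ep400 at -0.041 (-0.073 to -0.010) had intervals below 0. For Epc1 (0.044), Epc2 (-0.0071) and Kat5 the interval included 0. In all, 7 of 10 intervals excluded 0, against 65.8% of the tested genes. Of these, 5 lay above 0 (39.5% of tested genes) and 2 below (26.3%), and 7 of 10 members were higher in the DFO library, against 57.9%. Counts of this kind are thus near those of genes in general at this depth.

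Cells of both sexes were present and were assigned by Xist and 4 Y-linked transcripts. These cells share a culture and a library, so the sexes are not replicates. The 4751 female vehicle cells and 5251 female DFO cells gave differences of 0.17 for Ruvbl2, 0.11 for Trrap and 0.11 for Ruvbl1. The 2767 male vehicle and 3266 male DFO cells gave 0.13, 0.14 and 0.13 for the same genes. Dmap1 was lower in the DFO library in both sexes (-0.078 female, -0.11 male), as was Ep400 (-0.033 and -0.041), whose intervals included 0 in each sex. Kat5 took opposite signs, 0.025 in female and -0.035 in male cells, and both intervals included 0. Within a library, no member differed between male and female cells by 0.25 or more with 1 sign in both libraries, as 0.293% of tested genes did.

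**Figure D2:**
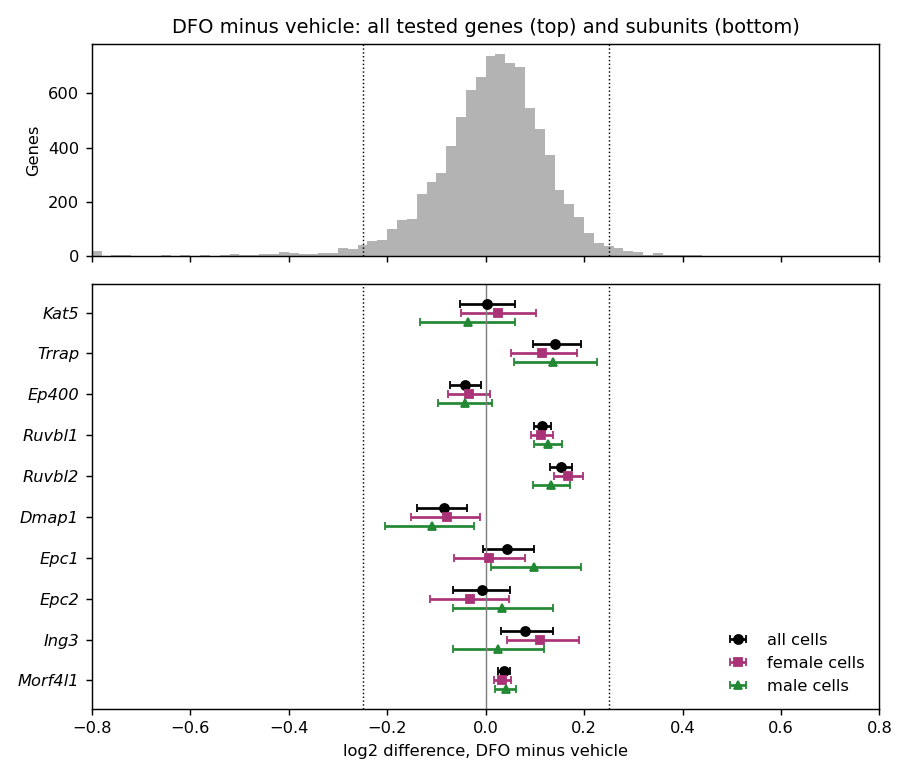
Top, histogram of the log2 difference (DFO minus vehicle) of the 8886 tested genes, with values beyond 0.8 drawn at the edges. Bottom, the difference of each subunit in all cells (black), female cells (purple) and male cells (green), with 95% intervals of the ratio. Dotted lines mark 0.25 in either direction, which no subunit reached, and Ruvbl1, Ruvbl2 and Trrap lie to the right of 0 in all 3 sets of cells.

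Cells of both libraries were then clustered together without the members, the listed partner genes and cell cycle genes, which gave 9 clusters. Cluster 5 was HSC-like, with 17 of the 18 HSC markers detected but only Sult1a1 among its 10 leading genes. Immune genes (Ccl4, Ccl9, Ctss, Ltb and Pdcd1) made up more of the leaders than HSC markers did, so the name rests on little, although no leader was in another marker list. Cluster 1 was megakaryocyte-like, led by Serpinb2, Cavin2, Tesc, Serpine2 and Pf4, and cluster 8, with 65 vehicle and 58 DFO cells, was neutrophil-monocyte-like. No name was given to the remaining 6. Mitosis genes such as Nusap1 and Ube2c led cluster 0, while the leading genes included Ung and Hist1h2bc in cluster 2, Slc7a8 and Lpl in cluster 3, Shisa8 and Rapgef5 in cluster 4, and Trnp1 and Gna14 in cluster 7. Cluster 6, led by Rpgrip1 and Slc39a1, held cells with few molecules, a median of 7250 UMIs for vehicle and 6655 for DFO. Clusters are made from these same cells, so levels by cluster are a description.

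Outside cluster 6, the subunits summed varied little. For vehicle the megakaryocyte-like cluster was lowest (877.4 CPM) and cluster 2 highest (964.2 CPM), and for DFO the sum ran from 900 CPM in the HSC-like cluster to 995.5 CPM in cluster 2 for DFO. Kat5 lay at 19.4 CPM (17.7 to 21.2) in HSC-like and 17.7 CPM (16.7 to 18.8) in megakaryocyte-like vehicle cells. In the DFO library Kat5 was at 19.6 CPM (17.7 to 21.6) and 17.95 CPM (16.8 to 19.2) in the same clusters, so the intervals of the 2 states overlapped in both libraries. Its highest level was in cluster 7, at 23.0 CPM (20.5 to 25.9) for vehicle and 25.2 CPM (22.1 to 28.6) for DFO. Among the 8 clusters other than cluster 6 none of the 10 members had a 2-fold range in both libraries, a range that 17.4% of tested genes reached.

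Between the HSC-like and the megakaryocyte-like cells none of the 10 members differed by 0.5 or more in both libraries, against 27.9% of the tested genes. In both libraries 5 members were higher in HSC-like cells by any amount (43% of tested genes) and 3 lower (48.9%). At a clustering resolution of 1.0 these counts were 8 and 1. The shares over all tested genes were not taken at a resolution of 1.0, so these counts are not read as a result. Dmap1, lower by 0.13 and 0.18 in the main clustering, was higher by 0.089 and 0.063 at a resolution of 1.0. Trrap was at 27.0 CPM (24.98 to 29.1) in HSC-like and 22.2 CPM (21.1 to 23.3) in megakaryocyte-like vehicle cells, a log2 difference of 0.27, and the DFO library gave 0.12. Epc1 was higher in HSC-like cells by 0.37 and 0.17, and Morf4l1 by 0.13 and 0.12, for vehicle and DFO. A resolution of 0.25 gave broader clusters, with 7279 HSC-like cells against 2246 and 5269 megakaryocyte-like cells against 3024. At that resolution the differences were 0.061 and 0.027 for Trrap and 0.21 and 0.071 for Epc1. In thinned cells of the main clustering that of Trrap was 0.17 and 0.023. Ruvbl1 was at 180.8 CPM (175.6 to 186.1) in HSC-like and 214.1 CPM (210.6 to 217.6) in megakaryocyte-like vehicle cells, with differences of -0.24 for vehicle and -0.36 for DFO. Ruvbl2 gave -0.19 and -0.28. Ruvbl1 stayed lower in HSC-like cells at a resolution of 1.0 (-0.044 and -0.15) and in thinned cells (-0.31 and -0.41). The same held when genes that reached 0.25 between libraries were left out of the clustering (-0.14 and -0.18). At the resolution of 0.25, however, the Ruvbl1 difference was 0.025 for vehicle and -0.029 for DFO. That of Ruvbl2 was 0.070 and 0.0089, so no direction between these states is read for either. The Kat5 differences, 0.12 in both libraries, became 0.049 and -0.14 at that resolution. The HSC-like cells also held fewer molecules (medians of 20379 and 19127 UMIs, against 35136 and 33175) and 38.1% and 34.5% G1 calls against 1.84% and 1.46%, whose part in these differences was not tested.

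Cluster 6 stood apart from the rest in both libraries. Ruvbl1 was at 65.4 CPM (57.8 to 73.9) for vehicle and 71.1 CPM (63.3 to 79.5) for DFO there, Ruvbl2 at 38.6 and 43.8 CPM, and Dmap1 at 8.96 and 7.22 CPM. In each case this was the lowest level of any cluster. Trrap (42.1 and 47.3 CPM), Ep400 (89.3 and 84.3 CPM), Epc1 (39.3 and 39.1 CPM) and Epc2 (40.6 and 34.9 CPM) had their highest levels there. Morf4l1 (388.7 and 404.9 CPM) lay within the range of the other clusters. With cluster 6 included, 5 of 10 members (Trrap, Ruvbl1, Ruvbl2, Dmap1 and Epc2) had a 2-fold range over clusters in both libraries, near the 43.4% of tested genes. The mitochondrial share of these cells was 6.19% for vehicle and 7.51% for DFO, against 3.27% to 4.81% in the other clusters. The part of low depth and cell quality in the pattern was not tested.

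**Figure D3:**
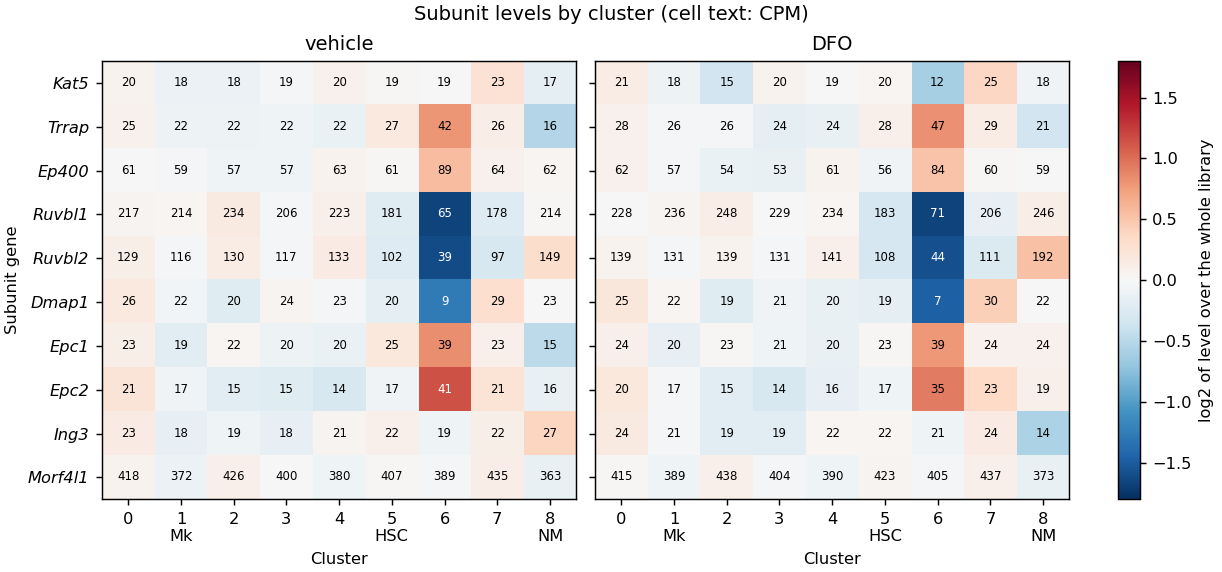
Level of each subunit (rows) in each cluster (columns) of the vehicle and DFO libraries. Numbers are CPM and colour is the log2 level against the whole library. HSC, Mk and NM mark the HSC-like, megakaryocyte-like and neutrophil-monocyte-like clusters, and cluster 6, the cells with few molecules, holds the strongest colours in both libraries.

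Within clusters, Ruvbl1, Ruvbl2 and Trrap were higher in the DFO library in 9 of 9 clusters, as 11.9% of tested genes were. In thinned cells the counts were 9 for Ruvbl1, 8 for Ruvbl2 (lower in cluster 6) and 7 for Trrap (lower in clusters 3 and 5). In megakaryocyte-like cells Ruvbl2 was at 116.4 CPM (113.8 to 119.0) for vehicle and 131.0 CPM (127.8 to 134.3) for DFO, a difference of 0.17. In HSC-like cells Ruvbl2 went from 101.7 CPM (97.8 to 105.7) to 107.6 CPM (103.2 to 112.2), a difference of 0.081, and the 2 intervals overlap. The Ruvbl1 difference was 0.14 in megakaryocyte-like and 0.020 in HSC-like cells, and that of Trrap 0.20 and 0.058. Ep400 and Dmap1 were lower in the DFO library in 8 of 9 clusters, and 12.9% of tested genes were lower in at least 8. In thinned cells Ep400 was lower in 7 and Dmap1 in 5 of 9. Ep400 was higher by 0.023 in cluster 0, and Dmap1 by 0.052 in cluster 7.

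The Kat5 difference was above 0 in 6 and below 0 in 3 clusters. In thinned cells it was above 0 in 3 and below 0 in 6, so no direction is read from these counts. Before thinning, the Kat5 difference was 0.015 (-0.18 to 0.21) in HSC-like cells and 0.017 (-0.11 to 0.15) in megakaryocyte-like cells. Its interval excluded 0 in 2 clusters, both lower in the DFO library. In cluster 2, Kat5 went from 17.6 CPM (16.1 to 19.2) to 14.9 CPM (13.8 to 16.1), a difference of -0.23 (-0.41 to -0.066). In cluster 6 Kat5 lay at 18.9 CPM (14.9 to 23.7) for vehicle and at 12.3 CPM (9.25 to 16.2) for DFO, a difference of -0.58 from 76 and 53 molecules, in a cluster where 25.6% of tested genes passed 0.25. In thinned cells the Kat5 difference was -0.37 in cluster 2 and -1.14 in cluster 6, the latter from 31 and 12 molecules. In the small neutrophil-monocyte-like cluster Ing3 had 57 vehicle and 25 DFO molecules (-0.88), and 40.6% of tested genes passed 0.25 there.

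Cell cycle phase was called on thinned cells. Of all vehicle cells 54.2% and of all DFO cells 55.1%, counting those left out of thinning, were called G2/M. Ruvbl1 was at 162.5 CPM (153.0 to 172.4) in G1, 206.8 CPM (201.6 to 212.0) in S and 209.8 CPM (205.7 to 213.9) in G2/M calls of the vehicle library. Ruvbl2 was at 92.2, 121.0 and 118.8 CPM in the same calls. These 2 members were higher in G2/M than in G1 calls by 0.25 or more in both libraries, as 21.9% of tested genes were. Kat5 was at 20.8 CPM (17.5 to 24.5) in G1, 19.0 CPM (17.5 to 20.6) in S and 20.7 CPM (19.5 to 22.1) in G2/M calls for vehicle. In the DFO library the Kat5 levels were 23.3 CPM (19.2 to 27.9), 16.2 CPM (14.9 to 17.6) and 20.1 CPM (18.9 to 21.3), with S calls below both other phases. Within S calls Kat5 differed between libraries by -0.22 (-0.40 to -0.057) and Dmap1 by -0.23 (-0.40 to -0.082).

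MYC is a transcription factor that recruits the complex, and its own transcript was at 91.9 CPM for vehicle and 107.6 CPM for DFO. Thinned cells were ordered by their summed molecules of 28 MYC target genes, mostly of ribosome assembly, and divided into 4 groups. Each group is a range of this score and not a cell type. The highest group held 20.1% of all vehicle and 28.8% of all DFO cells, counting those left out of thinning. The score did not follow Myc itself. From the lowest to the highest group Myc was at 91.3, 98.2, 98.7 and 98.6 CPM for vehicle. For DFO it was at 108.4, 121.9, 101.3 and 112.5 CPM. Ruvbl1 rose in level over the groups from 160.85 CPM (155.9 to 165.9) to 204.3, 226.0 and 244.8 CPM (237.6 to 252.3) for vehicle, and from 171.8 to 257.4 CPM for DFO. Ruvbl2 went from 91.7 CPM (87.9 to 95.5) to 140.7 CPM (135.2 to 146.4) for vehicle and from 96.5 to 154.5 CPM for DFO. The difference between the highest and the lowest group was 0.60 and 0.58 for Ruvbl1 and 0.61 and 0.67 for Ruvbl2. Of the tested genes 18.6% were higher in the highest group by 0.25 or more in both libraries, beside these 2 of 10 members.

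Kat5 went the other way, from 22.2 CPM (20.4 to 24.2) in the lowest to 17.6 CPM (15.7 to 19.7) in the highest group for vehicle. The DFO library gave 20.3 CPM (18.37 to 22.4) and 16.6 CPM (15.2 to 18.2), so the intervals of the 2 groups did not overlap in either library. The differences were -0.32 and -0.28 for Kat5 and -0.41 and -0.28 for Epc2. These 2 of 10 members were lower by 0.25 or more in both libraries, against 24.7% of tested genes. Before thinning, the median depth rose from 21767 UMIs in the lowest to 34053 UMIs in the highest group for vehicle and from 20680 to 32069 UMIs for DFO, whose part was not tested.

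**Figure D4:**
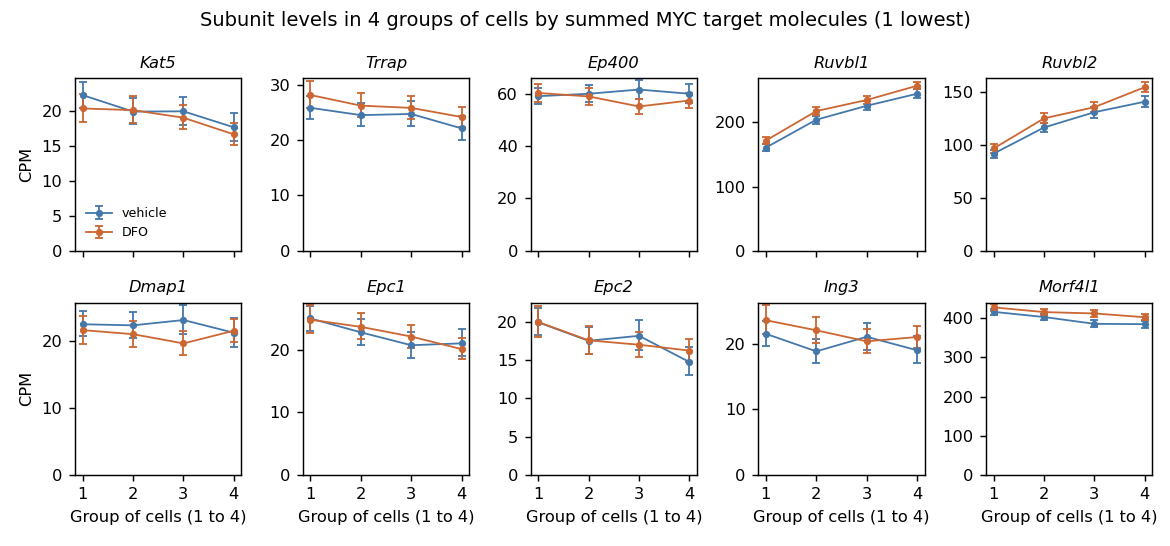
Level of each subunit in CPM over thinned cells, in 4 groups of cells by summed MYC target molecules (1 lowest, 4 highest), for vehicle (blue) and DFO (orange) with exact 95% Poisson intervals. Ruvbl1 and Ruvbl2 climb from the lowest to the highest group in both libraries, while Kat5 and Epc2 decline.

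Of the 9 further subunits of the complex none reached 0.25, against 3.97% of tested genes. In the DFO library 7 of 9 were higher, against 57.9% of tested genes. Meaf6, which stabilises the acetyltransferase module, was at 72.1 CPM for vehicle and 82.1 CPM for DFO (0.18), and Mrgbp, a partner of Morf4l1, at 39.5 and 44.6 CPM (0.17). Morf4l2, the paralog of Morf4l1, differed by 0.081, Vps72, an H2A.Z chaperone, by 0.052, Actl6a by 0.047, Mbtd1 by 0.045 and Yeats4 by 0.038. Brd8, a bromodomain subunit, differed by -0.027, and Actb, which encodes actin and serves far more than this complex, by -0.089. Their median was 0.047.

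Related machinery was read in the same way. None of the 12 tested INO80 genes (median 0.0023), 19 tested SAGA genes (0.036), 16 tested genes of other MYST acetyltransferase complexes (0.022), 13 tested deacetylases (0.045) and 9 tested genes of acetyl-CoA supply (-0.048) reached 0.25. Over all tested genes 3.97% did. The SAGA complex shares Trrap with the Tip60 complex, and its acetyltransferase Kat2a was the highest member there (0.20), followed by Usp22 (0.15), with Tada2b (-0.14) and Taf6l (-0.074) lowest. INO80 ran from Ino80b (-0.11) and Ino80e (-0.071) to Ino80 (0.064) and Uchl5 (0.090). The MYST group ran from Ing4 (-0.13) and Brd1 (-0.089) to Jade1 (0.092) and Jade3 (0.15). Deacetylases ran from Hdac5 (-0.21) and Hdac8 (-0.18) to Hdac2 (0.14) and Hdac3 (0.14). Among the tested genes of acetyl-CoA supply Acss2 (-0.18) and Crat (-0.18) were lowest and Pdhb (0.041) and Dlat (0.13) highest. Acss1, a mitochondrial acetyl-CoA synthetase of the same list, averaged under 5 CPM and was not tested, at 5.22 CPM for vehicle and 3.19 CPM for DFO (-0.57). Chaperone partners of the Ruvbl proteins had a median of 0.068 over 11 genes, from Wdr92 (-0.085) and Tti1 (-0.038) to Nufip1 (0.15) and Hsp90aa1 (0.19).

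H2A.Z is exchanged by Ep400 and Srcap. Its gene H2afz was at 3921 CPM for vehicle and 4294 CPM for DFO (0.13), while the second H2A.Z gene, H2afv, was at 385.5 and 344.8 CPM (-0.16). The 2 genes also lay on opposite sides between states: H2afv was higher in HSC-like than in megakaryocyte-like cells by 0.88 for vehicle and 1.04 for DFO, and H2afz was lower by 0.62 and 0.60. Both are values of the main clustering only, and the part of depth and of G1 calls in them was not tested. Anp32e, which removes H2A.Z, differed by 0.091 between libraries, Srcap by 0.055 and Znhit1 by -0.033, and the 6 genes of H2A.Z exchange had a median of 0.021.

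Among 12 recruiters and substrates none reached 0.25 (3.97% of tested genes) and 11 were higher in the DFO library (57.9% of tested genes). Myc had the highest difference, 0.22 (0.20 to 0.25). It was followed by Trp53bp1 (0.13), Trp53 (0.10), E2f1 (0.089), Atm (0.070), Mycn (0.069), Nbn (0.055), Mdc1 (0.039), E2f4 (0.020), Max (0.0040) and H2afx (0.0020), with Chek2 at -0.0027. Between states 2 genes of this list were higher in HSC-like cells by 0.5 or more in both libraries (Myc and Trp53bp1). Another 2 were lower (H2afx and E2f4). The largest difference in absolute size was that of H2afx, at -1.4161 for vehicle and -1.2779 for DFO. Myc had the highest difference, 0.97 for vehicle and 0.81 for DFO. It was at 132.6 CPM (128.2 to 137.2) in HSC-like and 67.4 CPM (65.5 to 69.4) in megakaryocyte-like vehicle cells. The median of the MYC targets lay the other way, at -0.60 for vehicle and -0.61 for DFO, with 16 of 28 lower by 0.5 or more in both libraries (12.9% of tested genes) and none higher (15% of tested genes). These differences between states are of the main clustering only, and the part of depth and of G1 calls in them was not tested. Between libraries 1 of the 28 MYC targets reached 0.25 (Pno1, 0.26), with Odc1 (0.21) next and Eif5a (-0.093) and Wdr74 (-0.089) lowest. Against the same 57.9%, 32 of 42 S phase genes were higher in the DFO library, and none reached 0.25, with E2f8 (-0.20) and Blm (-0.16) lowest and Hells (0.24) highest. Of 52 G2/M genes 28 were higher and 1, Ckap2l (-0.51), passed 0.25, with Cdc25c (-0.16) next and Hmgb2 (0.22) and Kif23 (0.18) highest.

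Over the 18 sums of cluster and library, Ruvbl1 and Ruvbl2 had a Pearson correlation of 0.97, and one of 0.83 over the 16 sums without cluster 6. Trrap and Epc1 had 0.94 and 0.79 in the same way. The 45 pairs of members had a median of 0.028 with cluster 6 and 0.16 without it, so the 10 transcripts did not follow a single pattern. The genes most like Kat5 were Btrc (0.85), Prkra (0.83), Ascc1 (0.82), Exoc3 (0.79) and Cpt2 (0.78), among 7383 genes at 10 CPM or more. Without cluster 6 they were E4f1 (0.93), Trappc12 (0.89), Foxn3 (0.88), Prkra (0.87) and Wwox (0.87), so only Prkra was in both lists of 5. The genes most like the mean profile of the members were Bcdin3d (0.92), Spg7 (0.87), Odf2l (0.84), Cwf19l2 (0.82) and Gtpbp2 (0.82), and none of these was among the 5 without cluster 6 (Erlin2, Tmem164, Ttc5, Sppl3 and Mtmr12). These sums share libraries and differ in depth, and Kat5 rests on as few as 32 molecules in the smallest, so the correlations are a description.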

How the data were processed

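Each library is 1 droplet-based single-cell preparation (10x Genomics 3′ v3, 20000 cells loaded). FastQC 0.11.9, Trim Galore 0.6.5, Cell Ranger 3.0.2 and the build mm10 are named, per the submitters' processing notes, without roles. No source used here names the tool for normalization or the filter on cells. The deposited values are natural log values. They equal the natural log of 1 plus a gene's share of its cell's molecules times 27408: undone on that scale, 100% of nonzero values were whole molecules within 0.05. No deposited cell was removed.

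Molecules were summed per library or cluster, scaled to CPM and compared with a pseudocount of 1 CPM. With 1 library per group no test was run. Thinning drew 10000 molecules per cell without replacement. Clustering used the 2000 most variable genes, 30 principal components, 15 neighbours weighted by shared neighbours, and Leiden at resolution 0.5. A cluster was named where 3 or more markers of a type were detected, 1 or more led it, and that type ranked first by both leading markers and a mean fold above 0 on the log2 scale. Leading genes are the top 10 by fold among genes seen in 10% of a cluster's cells. Clusters with 50 cells or more in each library were compared. Phases were called with scanpy. Female cells had 5 or more Xist and no Y-linked molecules, male cells at most 1 Xist and 2 or more Y-linked molecules. Scrublet marked 3 vehicle and 2 DFO cells, so its threshold has not worked. Instead an alternative left out 820 vehicle and 925 DFO cells with high scores or molecules of both sexes. Positions come from GENCODE M21 (GRCm38), and all 10 members matched by symbol.

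The members and gene lists were chosen with earlier results of these data known. The text names all members, all genes of the lists of further subunits and of recruiters and substrates, the 2 highest and 2 lowest of the other lists, the 5 genes most like Kat5 and most like the mean profile, and leading genes of clusters. A gene that this rule names is not reported here. Named outside this rule, after their values were seen, are Rnaseh2c, Gys1, Srcap and Acss1. Tools were scanpy 1.11.5, scikit-learn 1.9.0, scipy 1.17.1, leidenalg 0.10.2, igraph 0.11.9, numpy 2.4.6 and matplotlib 3.10.9 under Python 3.11.15. The summed differences were tested on simulated data.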

Additional observations from a re-analysis of the deposited data

How the results depend on the processing

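No member reached 0.25 under any of the 11 alternatives that recompute the differences (other pseudocounts, means over cells, thinned cells, median of ratios scaling, a stricter cell filter, equal cluster shares, female or male cells only, without likely doublets, and without cluster 6, the last chosen after seeing the data), and the background minimums left the count at 0. At a size of 0.1 the count was 3 in the main setting. Trrap fell under that size in thinned cells (0.080) and Ruvbl1 with median of ratios scaling (0.096). Dmap1 passed it with median of ratios scaling (-0.104) and in male cells (-0.109), and Ing3 in female cells (0.111). The median difference of the members, 0.041, was 0.019 with thinned cells, 0.022 with median of ratios scaling, 0.031 with equal cluster shares and 0.030 in female cells. Trrap, Ep400, Ruvbl1, Ruvbl2, Dmap1, Ing3 and Morf4l1 kept their sign in 11 of 11 alternatives. Kat5 kept it in 7, with a lowest value of -0.093 (thinned cells), Epc1 in 10 and Epc2 in 9, so no direction is read for these 3. Between states the count past 0.5 was 0 under the 5 alternatives run. The count with a 2-fold range over clusters, 5, was 3 with pseudocount 10 and 0 without cluster 6. The counts by direction within clusters in thinned cells and between states at other clusterings, given beside those results, were chosen after seeing the data. Leaving out replicates and a replicate check could not be done. No paired analysis was possible because each group has 1 library.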

Other observations

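Trrap and Ep400 are the 2 large scaffold subunits, and their transcripts went in opposite directions between the libraries. Trrap made up 28.3% (27.7% to 28.9%) of the molecules of the pair in the vehicle library, 6217 of Trrap and 15729 of Ep400. In the DFO library the share was 31.0% (30.5% to 31.6%), from 7494 and 16652 molecules. It was higher for DFO in 9 of 9 clusters, with intervals that did not overlap in clusters 1 (27.5% and 30.9%) and 2 (28.2% and 32.7%) and that overlapped in the others. In HSC-like cells it was 30.6% (28.6% to 32.5%) for vehicle and 33.3% (31.1% to 35.6%) for DFO. In thinned cells the share was lower for DFO in cluster 3. There the counts were 304 Trrap and 665 Ep400 molecules for vehicle, and 294 and 715 for DFO.

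The share of Ruvbl1 among the molecules of Ruvbl1 and Ruvbl2 was 63.7% for vehicle and 63.1% for DFO. In 8 of the 9 clusters it lay between 61.9% and 65.0% in both libraries, cluster 6 included, although both levels there were less than those of all other clusters. The neutrophil-monocyte-like cluster lay lower, at 59.0% (55.4% to 62.5%) for vehicle and 56.2% (52.55% to 59.7%) for DFO. Its vehicle interval reaches into the span of the other clusters.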
